A study of Mus musculus with 18 samples.

Results

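The genes described here are 35 genes of the endoplasmic reticulum (ER) stress response and of the folding of secreted proteins. They were chosen by symbol from a list: every line of the deposited liver expression table whose gene symbol was on that list was taken, and all 35 were found among 19057 lines. They were set in 5 arms: 15 chaperones and folding enzymes, 7 genes of ER-associated degradation, 3 stress sensors with Xbp1 (4 genes), 6 genes of the Atf4-Chop arm and 3 genes of the translocon. All 35 passed the filter on low values and were among the 10507 genes tested.

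Liver RNA was sequenced from 18 ICR mice aged 10 weeks, in 6 groups of 3 livers. The mice were male by the methods. Con mice ate a regular diet and, by the methods, were given saline. AOS mice received alginate oligosaccharide, a short sugar chain cut from the brown-algal polymer alginate, at 10 mg/kg. The label of the AOS mice names no diet, and they are taken here to have eaten the regular diet because it does not name the high-fat diet. HFD mice ate a high-fat diet with saline, and HFD+AOS mice ate it and received AOS at 10 mg/kg. Con-FMT and A10-FMT mice ate the same high-fat diet and were inoculated by mouth with gut content of other mice (fecal microbiota transplantation, FMT), from control donors or from donors dosed with AOS at 10 mg/kg. By the methods, that content came from the small intestine and was pooled within each donor group, so the recipients of a group shared 1 inoculum. The methods do not say when AOS was given to the AOS and HFD+AOS mice. The hour at which livers were taken is not given in the sources used here. The comparisons asked whether diet, AOS or a transplant moved these genes, and whether chaperone, degradation and Atf4-Chop genes moved in the same way.

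The ER folds the proteins that a cell secretes, and the hepatocyte, which makes most plasma proteins, depends on it heavily. When unfolded proteins gather there, 3 membrane sensors respond. Ern1 (IRE1) splices Xbp1 messenger RNA, Atf6 is cut to release a transcription factor, and Eif2ak3 (PERK) phosphorylates eIF2alpha, which slows translation and favours Atf4. Atf6 and spliced Xbp1 are known to induce chaperones and ER-associated degradation, which sends misfolded proteins back to the cytosol for the proteasome. Atf4 induces Ddit3 (Chop), Trib3, Asns and Chac1, genes of amino acid supply, redox balance and cell death.

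Values were RPKM (reads scaled to gene length and to the total of the library), so levels of different genes can be set side by side per length. Differences between groups were taken on log2(RPKM + 1) and tested with limma, and adjusted p-values are Benjamini-Hochberg values over the 10507 genes; a log2 fold change on this scale understates the change of genes at low RPKM. A gene was said to have risen or fallen where its adjusted p was under 0.05. The 35 genes held 0.296% to 0.607% of the summed RPKM of a liver. In whole liver, fewer cells of a type and less RNA per cell cannot be told apart. Albumin (Alb) was between 24367 and 41363 RPKM in the 18 livers. Of 9 pancreatic acinar markers, a cell type very rich in ER chaperones, Cela1 was between 30.6 and 52.9 RPKM and the other 8 stayed at or under 2.65 RPKM. Of 8 B and plasma cell markers, the plasma cell receptor Tnfrsf17 was listed at 0 in every liver, and the list summed to 1.08 to 2.41 RPKM in HFD, 2.60 to 3.81 in HFD+AOS and 2.21 to 11.2 in A10-FMT.

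Some livers stood apart. Con replicate 3 lay between the other Con livers for 98.0% of the 148 genes on which those differed most clearly. AOS replicate 3 did so between the other AOS livers for 96.5% of 142 genes, against at most 76.8% for any liver of the other 4 groups. On such genes a weighted mean of the other livers of the group came within a median log2 of 0.07 of Con replicate 3 and 0.08 of AOS replicate 3. For any other liver this median was 0.34 or more. Counts of calls are therefore given with and without these livers, and p-values of single genes are from the fit with all 18 livers unless stated. Con-FMT replicate 2 held the highest value of all 18 livers in 17 of the 35 genes, and HFD replicate 2 in 9. A10-FMT replicate 1 held the lowest value in 13, among them 10 of the 15 chaperones.

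The sequences below are shown because the ER stress response element, the site that Atf6 is known to bind together with the factor NF-Y, was first described in chaperone promoters. It was searched as CCAAT, 9 bases and CCACG on both strands, from 250 bases before to 50 bases after each annotated start in RefSeq promoters of GRCm38.p6. Of the 35 genes, 30 had a promoter there. The element was found in 9 of the 30, against 0.137% of the promoters of 27025 genes, and Hsp90b1 held 2 copies. Each sequence is read on the strand where CCAAT comes first, with both ends of the element in capitals and 5 flanking bases, 5′ to 3′.
Calr (chr8:84847070-84847098, + strand): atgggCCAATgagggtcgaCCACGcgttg
Canx (chr11:50325795-50325823, - strand): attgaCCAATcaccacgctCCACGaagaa
Creld2 (chr15:88819515-88819543, - strand): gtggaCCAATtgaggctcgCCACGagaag
Derl3 (chr10:75893237-75893265, - strand): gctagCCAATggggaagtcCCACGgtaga
Dnajc3 (chr14:118937822-118937850, + strand): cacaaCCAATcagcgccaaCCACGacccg
Hsp90b1 (chr10:86705528-86705556, + strand): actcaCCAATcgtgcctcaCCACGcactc
Hsp90b1 (chr10:86705633-86705661, - strand): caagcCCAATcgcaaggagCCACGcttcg
Hspa5 (chr2:34772020-34772048, + strand): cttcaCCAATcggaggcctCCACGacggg
Pdia6 (chr12:17266486-17266514, + strand): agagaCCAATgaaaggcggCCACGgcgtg
Syvn1 (chr19:6046527-6046555, + strand): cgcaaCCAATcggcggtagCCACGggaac
Of the 9 genes, 7 were chaperones or folding enzymes, and Syvn1 and Derl3 belong to degradation. In none of the 30 promoters was the Xbp1-type element UPRE found (searched as TGACGTGG on both strands), which 0.714% of genes held.

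A second kind of element, ERSE-II, searched as ATTGG, any base and CCACG on both strands, was found in 2 of the 30 genes, against 0.044% of genes. It is shown in the same way because Herpud1, which rose in A10-FMT against HFD where chaperones fell, was one of its holders. The other holder, Dnajb11, is a chaperone that fell in HFD+AOS and in A10-FMT against HFD.
Dnajb11 (chr16:22857847-22857867, + strand): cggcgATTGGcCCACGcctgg
Herpud1 (chr8:94386372-94386392, + strand): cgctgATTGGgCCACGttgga
The Atf4-C/EBP type motif TGATGNAA, searched on both strands, was found in Asns, Chac1, Trib3 and Herpud1, 4 of the 30 genes, against 4.511% of genes. The cAMP response element TGACGTCA was found in Ppp1r15a alone among the members, against 2.031% of genes. Herpud1 thus held letters of both kinds within the 150 bases before its start, chr8:94386279-94386428 on the + strand, which are printed here with the 2 matches in capitals (the first is TGATGNAA on the opposite strand).
Herpud1: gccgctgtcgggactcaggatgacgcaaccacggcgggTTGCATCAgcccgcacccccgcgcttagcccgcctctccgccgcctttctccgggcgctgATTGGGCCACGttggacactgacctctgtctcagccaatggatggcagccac
These matches describe letters in a window and say nothing about which factor was bound in these livers.

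**Figure D1:**
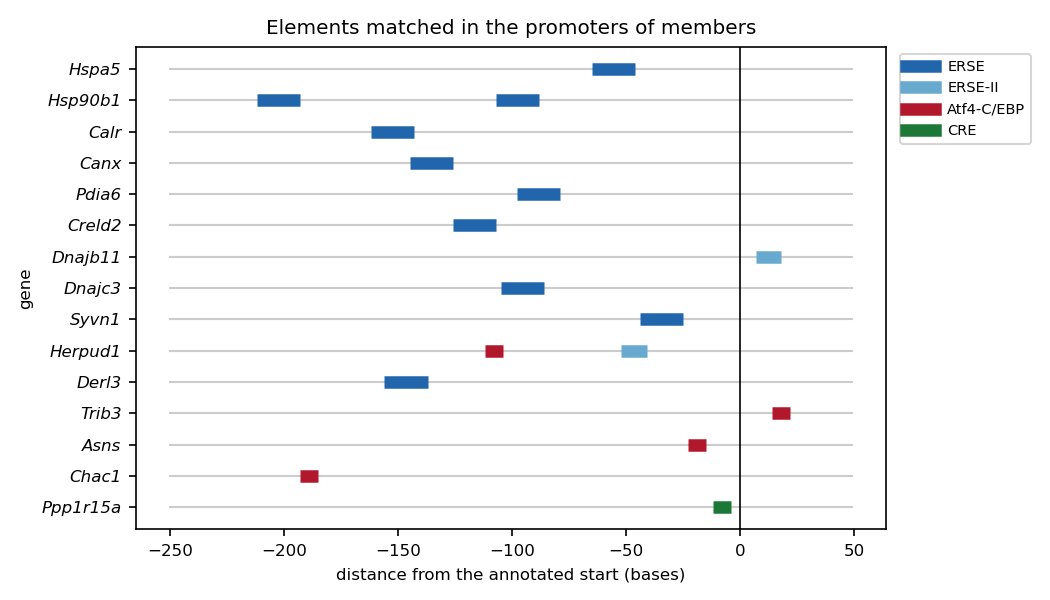
Position of each element matched in the promoters of 15 members, in bases from the annotated start, one line per gene. Blue bars are ERSE, light blue ERSE-II, red TGATGNAA and green the cAMP response element. The ERSE matches lie between positions -212 and -26, and Herpud1 carries an ERSE-II and a TGATGNAA match.

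Across the 6 groups taken at once, 19 of the 35 members changed by limma's F-test, against 14.8% of all genes tested. They were 11 of 15 chaperones, 4 of 7 degradation genes, 1 of 4 in the sensor arm (Ern1), 3 of 6 in the Atf4-Chop arm and 0 of 3 translocon genes. The count fell to 3 when Con replicate 3 and AOS replicate 3 were left out and ran from 8 to 23 when single livers were left out, so it rests on which livers define the spread. It was 8 without HFD+AOS replicate 2 or replicate 3 and 23 without Con-FMT replicate 1. Calls over all genes in fits with livers left out are not given here. Member counts from such fits are therefore not set against a share of all genes.

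The 2 comparisons with most calls were those of HFD+AOS and of A10-FMT with HFD, and they share the HFD livers. In HFD+AOS against HFD, 12 members fell, against 4.58% of all genes, and 1 rose, against 4.17%. The 12 were 10 chaperones, Edem1 and Ern1, and the 1 that rose was Trib3. Only 3 of the 13 calls (Canx, Ern1 and Trib3) were made without Con replicate 3 and AOS replicate 3, and 2 (Ern1 and Trib3) without HFD replicate 2, the highest of the HFD livers in chaperones; leaving out HFD replicate 3 or any HFD+AOS liver left 2 or 3. In A10-FMT against HFD, 9 members fell, against 3.98% of genes, and 1 rose, against 2.62%. The 9 were 7 chaperones, Sel1l and Ern1, and the 1 that rose was Herpud1. Of these 10 calls, 5 (Calr, Canx, Sdf2l1, Herpud1 and Ern1) were made without Con replicate 3 and AOS replicate 3 and 3 (Canx, Herpud1 and Ern1) without HFD replicate 2. Without A10-FMT replicate 1 or 2 there were 4, without A10-FMT replicate 3 there were 17, and 2 (Sdf2l1 and Herpud1) were called when the spread was taken from HFD and A10-FMT alone. For the 10 chaperones that fell in HFD+AOS against HFD, the highest adjusted p over the alternatives lay between 0.0592 (Canx) and 0.169 (Pdia3), and for the 7 in A10-FMT against HFD between 0.0610 (Sdf2l1) and 0.141 (Pdia4).

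Few members were called in the other comparisons. In HFD against Con no member changed by limma, and 0.381% of all genes changed. An unadjusted p under 0.05 was reached by 5 members and by 1623 of the 10507 genes tested. In AOS against Con no member changed, and 0.133% of genes changed, with 2 members and 1633 of the 10507 genes at an unadjusted p under 0.05. For Con-FMT against HFD the count was also 0, with 2 at an unadjusted p under 0.05, and 0.00952% of genes changed. In A10-FMT against Con-FMT, Sel1l and Ern1 fell, against 1.23% of genes that fell and 0.457% that rose. Neither was called without Con replicate 3 and AOS replicate 3 or without Con-FMT replicate 2 or 3. Without Con-FMT replicate 1, 14 members were called, and the share of all genes in that fit is not given here. In HFD+AOS against AOS, Edem1 fell and Trib3 rose, against 2.93% of genes lower and 2.51% higher, and none was called without Con replicate 3 and AOS replicate 3. The AOS effect on the high-fat diet differed from that on the regular diet for no member by limma, and for 0.504% of all genes. For this difference 6 members and 1541 of the 10507 genes had an unadjusted p under 0.05.

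The arms are given here by their median change, as a description with no test of the difference between arms. Over the 15 chaperones the median log2 fold change was -0.70 in HFD+AOS against HFD, with 15 of 15 negative, and -0.73 in A10-FMT against HFD, again with 15 of 15 negative. Over all genes tested the medians were -0.01 and -0.03. The 7 degradation genes had medians of -0.18 and -0.08. In the sensor arm the medians were -0.20 and -0.10, in the Atf4-Chop arm -0.16 and -0.14, and in the translocon -0.39 and -0.41. Apart from Xbp1 and Atf4, the genes of the sensor and Atf4-Chop arms were at lower RPKM than most chaperones. The scale therefore understates their changes more. Genes of the Atf4-Chop arm moved both ways, from -0.34 to 1.54 in the first comparison and from -0.34 to 1.08 in the second. The chaperone medians in the remaining comparisons were 0.08 for HFD against Con, -0.12 for Con-FMT against HFD, -0.47 for A10-FMT against Con-FMT, -0.19 for AOS against Con and -0.32 for HFD+AOS against AOS. Single livers moved several of these medians. In Con-FMT against HFD the chaperone median turned to 0.13 without Con-FMT replicate 1 and was -0.29 without Con-FMT replicate 2 and -0.02 without HFD replicate 2, and in A10-FMT against Con-FMT it was -0.73 without Con-FMT replicate 1 and -0.25 without Con-FMT replicate 2. In HFD against Con it ran from -0.04 without HFD replicate 2 to 0.16 without HFD replicate 3. In the comparisons of HFD+AOS and of A10-FMT with HFD the chaperone medians stayed between -0.79 and -0.55 and between -0.88 and -0.60 with 1 liver left out, while that of the degradation genes in the first ran from -0.33 without HFD replicate 1 to 0.00 without HFD replicate 2. The Atf4-Chop median ran from -0.25 to -0.06 in the first and from -0.19 to 0.01 in the second, where it was positive when A10-FMT replicate 3 was dropped. In the second, the degradation median ran from -0.15 to -0.04 and the sensor median from -0.16 to -0.01. All 15 chaperones stood lower in A10-FMT than in Con-FMT by their means, although none passed the test. An unadjusted p under 0.05 was reached by 12 of them and by 1727 of the 10507 genes tested.

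**Figure D2:**
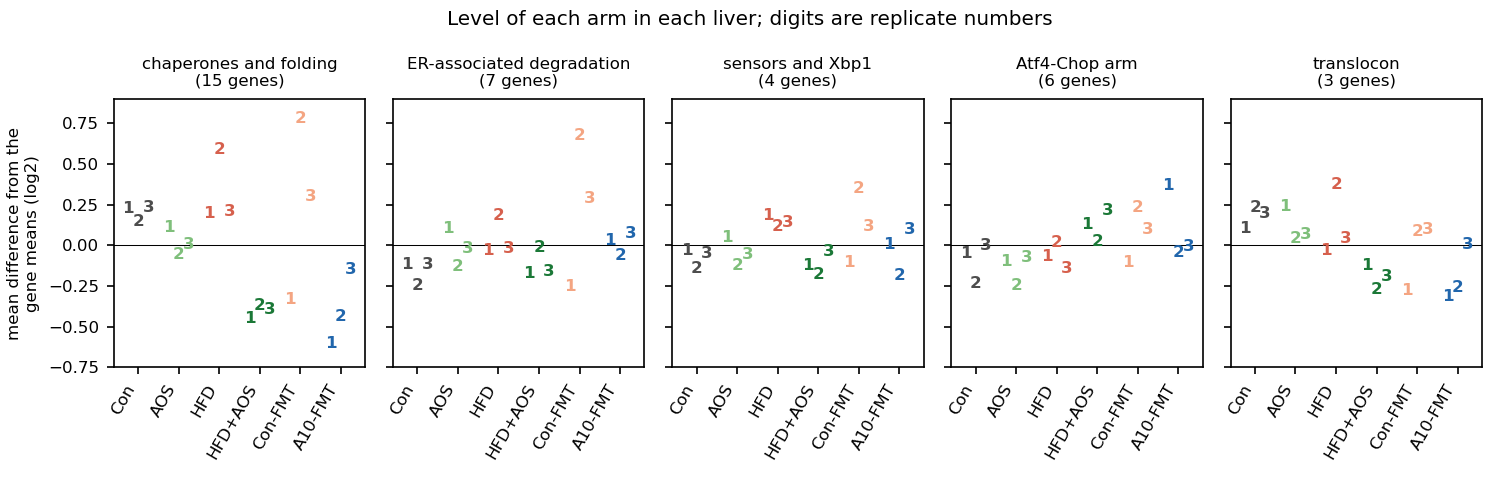
Level of each arm in each liver: the mean over the genes of the arm of log2(RPKM + 1) minus each gene's mean over 18 livers. Each digit is 1 liver, named by its replicate number, in the 6 groups on the horizontal axis. In the chaperone panel the HFD+AOS livers lie between -0.45 and -0.37, the HFD livers between 0.20 and 0.59, and the Con-FMT livers spread from -0.33 to 0.78.

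The chaperones took 0.303% to 0.334% of the summed RPKM in Con livers, 0.294% to 0.329% in AOS, 0.330% to 0.470% in HFD, 0.241% to 0.256% in HFD+AOS, 0.245% to 0.486% in Con-FMT and 0.202% to 0.265% in A10-FMT. The HFD+AOS livers therefore lay below every Con, AOS and HFD liver on this share and close to each other, and the Con-FMT livers spanned almost the whole range. By group means, 9 of the 15 chaperones were lowest in A10-FMT and the other 6 in HFD+AOS, while HFD and Con-FMT each held the highest mean for 7. The livers of HFD+AOS did not overlap those of HFD for 13 of the 15 chaperones, all lower (23 of the 35 members, against 14.0% of all genes), and the livers of A10-FMT did not overlap those of HFD for 12 of the 15, all lower (17 of the 35 members, against 13.4% of genes). Such separation was not particular to these comparisons. HFD+AOS livers lay wholly below AOS livers for 14 of the 15 chaperones (1796 of all 10507 genes). AOS livers lay wholly below Con livers for 9 of the 15 (554 of all 10507 genes). No chaperone was called in either comparison. Con replicate 3 lay between the other Con livers for 21 of the 35 members, and AOS replicate 3 between the other AOS livers for 25. A liver that lies between the others of its group cannot break a separation.

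**Figure D3:**
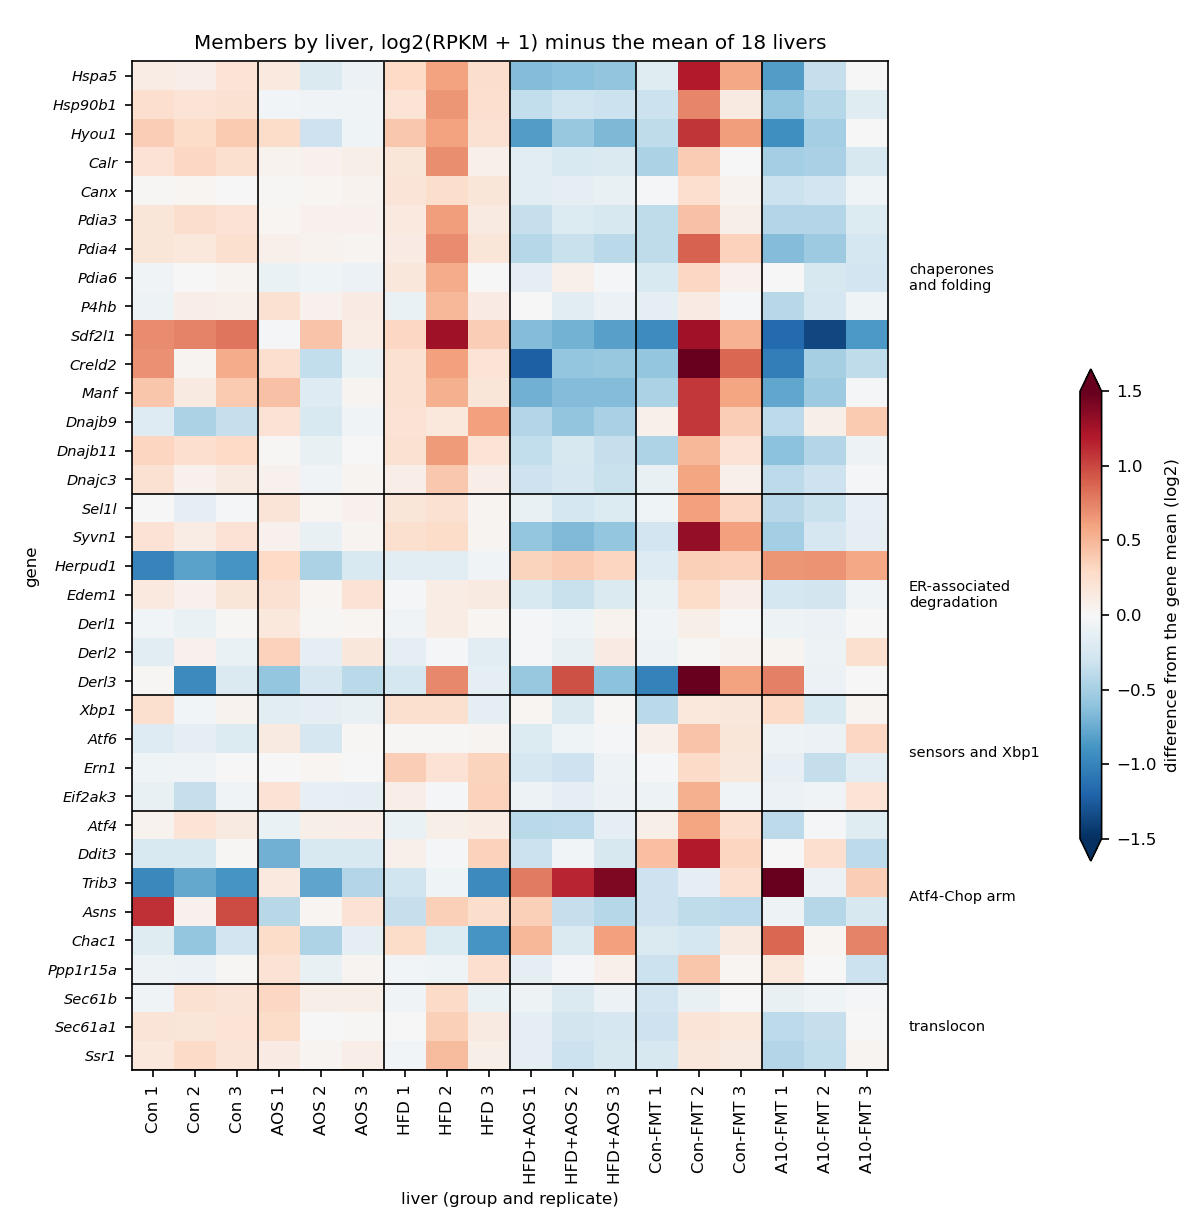
Heat map of the 35 members (rows, in 5 arms) in 18 livers (columns, grouped), as log2(RPKM + 1) minus the gene's mean over the livers, with red above and blue below the mean and the scale cut at 1.5. The chaperone rows are blue in the HFD+AOS livers, apart from P4hb in replicate 1 and Pdia6 in replicate 2, where Herpud1 and Trib3 are red, and all chaperone rows are red in Con-FMT replicate 2 and HFD replicate 2.

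Among the chaperones, Hspa5 (BiP) is the Hsp70 of the ER lumen, the chaperone that also holds the stress sensors inactive. Hspa5 was at 285, 284 and 304 RPKM in Con, 293, 228 and 249 in AOS, 327, 402 and 318 in HFD, 168, 173 and 174 in HFD+AOS, 234, 606 and 397 in Con-FMT and 147, 208 and 264 in A10-FMT. The HFD+AOS livers lay close to each other and below every Con, AOS and HFD liver. Hspa5 fell in HFD+AOS against HFD (log2 fold change -1.01 ± 0.25 SE, adjusted p = 0.0242), and its difference in A10-FMT against HFD did not pass (log2 fold change -0.79 ± 0.25 SE, adjusted p = 0.0702).

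Hsp90b1 (Grp94) is the Hsp90 of the ER. Hsp90b1 was at 341, 330.1 and 336 RPKM in Con, 279, 278 and 276 in AOS, 331, 454 and 343 in HFD, 222, 233 and 229 in HFD+AOS, 230, 479 and 316 in Con-FMT and 191, 213 and 253 in A10-FMT. It fell in both comparisons, in HFD+AOS against HFD (log2 fold change -0.70 ± 0.19 SE, adjusted p = 0.0313) and also in A10-FMT against HFD (log2 fold change -0.77 ± 0.19 SE, adjusted p = 0.024), and neither group overlapped HFD. Hyou1 (Grp170) is a large Hsp70-like protein that exchanges nucleotide on Hspa5. Hyou1 was at 43.96, 41.1 and 44.5 RPKM in Con, 40.9, 27.1 and 32.2 in AOS, 45.01, 51.8 and 39.8 in HFD, 18.5, 22.3 and 20.7 in HFD+AOS, 25.7, 71.7 and 52.4 in Con-FMT and 17.3, 23.4 and 33.9 in A10-FMT. All 3 HFD+AOS livers were below every liver on the regular diet as well, and Hyou1 fell in HFD+AOS against HFD (log2 fold change -1.11 ± 0.28 SE, adjusted p = 0.0252) but not in A10-FMT against HFD (log2 fold change -0.89 ± 0.28 SE, adjusted p = 0.0656).

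Sdf2l1, a partner of ER J-domain proteins that keeps clients from aggregating, had the largest decreases among the members. Sdf2l1 was at 38.9, 39.7 and 41.5 RPKM in Con, 23.04, 31.8 and 25.4 in AOS, 29.2, 57.97 and 30.4 in HFD, 14.5, 13.8 and 12.9 in HFD+AOS, 11.6, 57.3 and 33.9 in Con-FMT and 9.88, 8.49 and 12.4 in A10-FMT. The HFD+AOS and A10-FMT livers lay below all Con, AOS and HFD livers, and the Con-FMT livers spread from a value near those of A10-FMT to one at the level of HFD replicate 2. Sdf2l1 fell in HFD+AOS against HFD (log2 fold change -1.38 ± 0.38 SE, adjusted p = 0.036) and also in A10-FMT against HFD (log2 fold change -1.78 ± 0.38 SE, adjusted p = 0.0115); the latter call was made in 11 of 13 alternatives and lost without HFD replicate 2 or A10-FMT replicate 2, with an adjusted p of at most 0.0610.

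Of the lectin chaperones, which hold glycoproteins that carry a trimmed sugar, Canx is anchored in the membrane and Calr is free in the lumen. Canx was at 70.6, 71.3 and 70.03 RPKM in Con, 70.7, 71 and 72.1 in AOS, 79.8, 84.1 and 78.9 in HFD, 62.5, 62.7 and 64.3 in HFD+AOS, 68.3, 83.2 and 72.4 in Con-FMT and 55.6, 57.1 and 66.8 in A10-FMT. The HFD livers of Canx stood above all Con, AOS, HFD+AOS and A10-FMT livers, and Con-FMT and A10-FMT spread more widely than the other 4 groups. Canx fell in HFD+AOS against HFD (log2 fold change -0.35 ± 0.08 SE, adjusted p = 0.0147) and also in A10-FMT against HFD (log2 fold change -0.43 ± 0.08 SE, adjusted p = 0.0046), and its difference in A10-FMT against Con-FMT was close to the threshold (log2 fold change -0.31 ± 0.08 SE, adjusted p = 0.0593). Calr was at 552, 588 and 559.9 RPKM in Con, 492, 493 and 503 in AOS, 538, 767 and 499 in HFD, 421, 403 and 405 in HFD+AOS, 341, 614 and 475 in Con-FMT and 332, 336 and 401 in A10-FMT. Calr fell in A10-FMT against HFD (log2 fold change -0.73 ± 0.17 SE, adjusted p = 0.0206), with no overlap, and not in HFD+AOS against HFD (log2 fold change -0.53 ± 0.17 SE, adjusted p = 0.0712).

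The protein disulfide isomerases Pdia3, Pdia4, Pdia6 and P4hb form and rearrange disulfide bonds, and Pdia3 works with the lectin chaperones. Pdia3 was at 238, 251 and 244 RPKM in Con, 214, 219 and 219 in AOS, 231, 325 and 229.6 in HFD, 165, 181 and 178 in HFD+AOS, 161, 285 and 222 in Con-FMT and 154, 154 and 182 in A10-FMT. Pdia3 fell in HFD+AOS against HFD (log2 fold change -0.56 ± 0.16 SE, adjusted p = 0.0434) and also in A10-FMT against HFD (log2 fold change -0.66 ± 0.16 SE, adjusted p = 0.0243). HFD replicate 2 stood well above the other HFD livers in this gene. Pdia4 was at 78.9, 77.6 and 81.7 RPKM in Con, 72.9, 71.8 and 71.5 in AOS, 75.7, 114 and 78.7 in HFD, 51.2, 54.5 and 51.9 in HFD+AOS, 53.04, 128 and 88.3 in Con-FMT and 43.6, 46.9 and 57.5 in A10-FMT. Pdia4 fell in A10-FMT against HFD (log2 fold change -0.83 ± 0.22 SE, adjusted p = 0.0357) and just missed the threshold in HFD+AOS against HFD (log2 fold change -0.73 ± 0.22 SE, adjusted p = 0.0507). Pdia6 ranged from 125 to 225 RPKM and P4hb from 342 to 645, and neither changed in any comparison; their log2 fold changes in A10-FMT against HFD were -0.42 and -0.42.

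**Figure D4:**
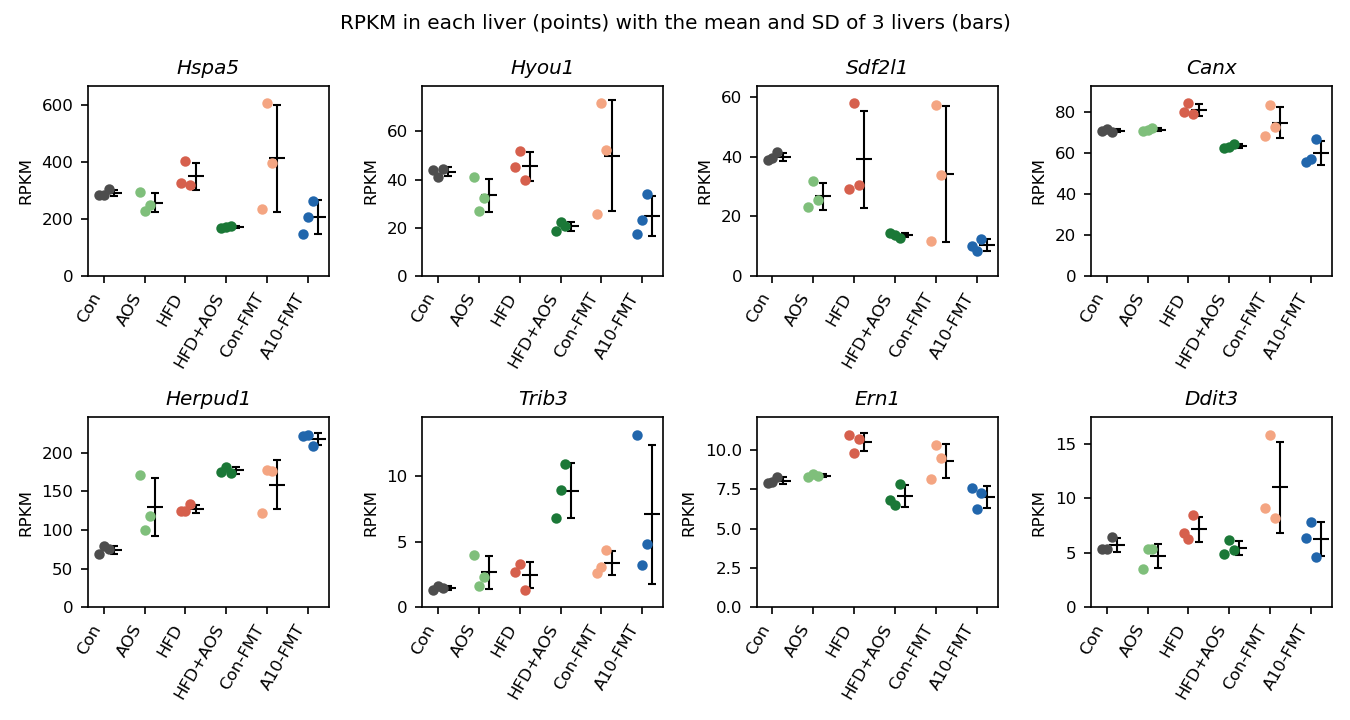
RPKM of 8 members in each liver (points, 3 per group, linear axes from 0), with the mean and SD of each group to the right of the points. Hspa5, Hyou1, Sdf2l1 and Canx have their lowest means in HFD+AOS and A10-FMT, Herpud1 is highest in A10-FMT, Trib3 is highest in HFD+AOS and in 1 A10-FMT liver, and Ddit3 is highest in Con-FMT replicate 2.

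The J-domain proteins Dnajb9, Dnajb11 and Dnajc3 stimulate the ATPase of Hspa5. Dnajb9 was at 28.1, 23.02 and 25.1 RPKM in Con, 37.8, 27.5 and 31.03 in AOS, 37.6, 36.3 and 50.1 in HFD, 23.6, 21.1 and 22.8 in HFD+AOS, 34.04, 68.8 and 42.2 in Con-FMT and 24.4, 34.5 and 42.9 in A10-FMT. In Dnajb9, a target of the Ern1-Xbp1 branch, the Con livers lay below all HFD livers, and the difference between these groups did not pass the test (log2 fold change 0.67 ± 0.22 SE, adjusted p = 0.176). It fell in HFD+AOS against HFD (log2 fold change -0.84 ± 0.22 SE, adjusted p = 0.0305), and the AOS effect differed between diets by -1.16 on the log2 scale, which did not pass (adjusted p = 0.115). Dnajb11 was at 52.9, 50.3 and 52.1 RPKM in Con, 42.7, 38.9 and 42.1 in AOS, 49.8, 66.2 and 48.9 in HFD, 32.4, 35.4 and 32.9 in HFD+AOS, 30.3, 60.1 and 49.4 in Con-FMT and 27.2, 30.98 and 40.03 in A10-FMT. Dnajb11 fell in HFD+AOS against HFD (log2 fold change -0.68 ± 0.19 SE, adjusted p = 0.0369) and also in A10-FMT against HFD (log2 fold change -0.73 ± 0.19 SE, adjusted p = 0.0297); in AOS against Con the difference was -0.32 (adjusted p = 0.43). Dnajc3 (p58IPK) ranged from 24.3 to 48.8 RPKM and fell in HFD+AOS against HFD (log2 fold change -0.50 ± 0.14 SE, adjusted p = 0.0416).

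Manf and Creld2 are small proteins that are secreted when the ER is stressed. Manf was at 58.3, 47.7 and 57.4 RPKM in Con, 59.3, 37.8 and 44.9 in AOS, 51.2, 63.2 and 49.2 in HFD, 26, 27.4 and 27.2 in HFD+AOS, 30.99, 91.4 and 65.8 in Con-FMT and 24.8, 29.5 and 42.97 in A10-FMT. Manf fell in HFD+AOS against HFD (log2 fold change -0.99 ± 0.29 SE, adjusted p = 0.0435), a call that was lost when any 1 of the 6 livers was left out, with adjusted p up to 0.134, and also with the replicate number as a block. Creld2 was at 34.9, 22.02 and 31.9 RPKM in Con, 25.6, 16.4 and 19.9 in AOS, 25.1, 33.4 and 24.8 in HFD, 8.60, 13.9 and 14.1 in HFD+AOS, 14.01, 80.6 and 39.6 in Con-FMT and 9.93, 14.9 and 16.2 in A10-FMT. Con-FMT replicate 2 stood at the top of both genes, and Creld2 did not pass in any comparison, with log2 fold change -1.14 ± 0.42 SE, adjusted p = 0.1 in HFD+AOS against HFD.

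**Figure D5:**
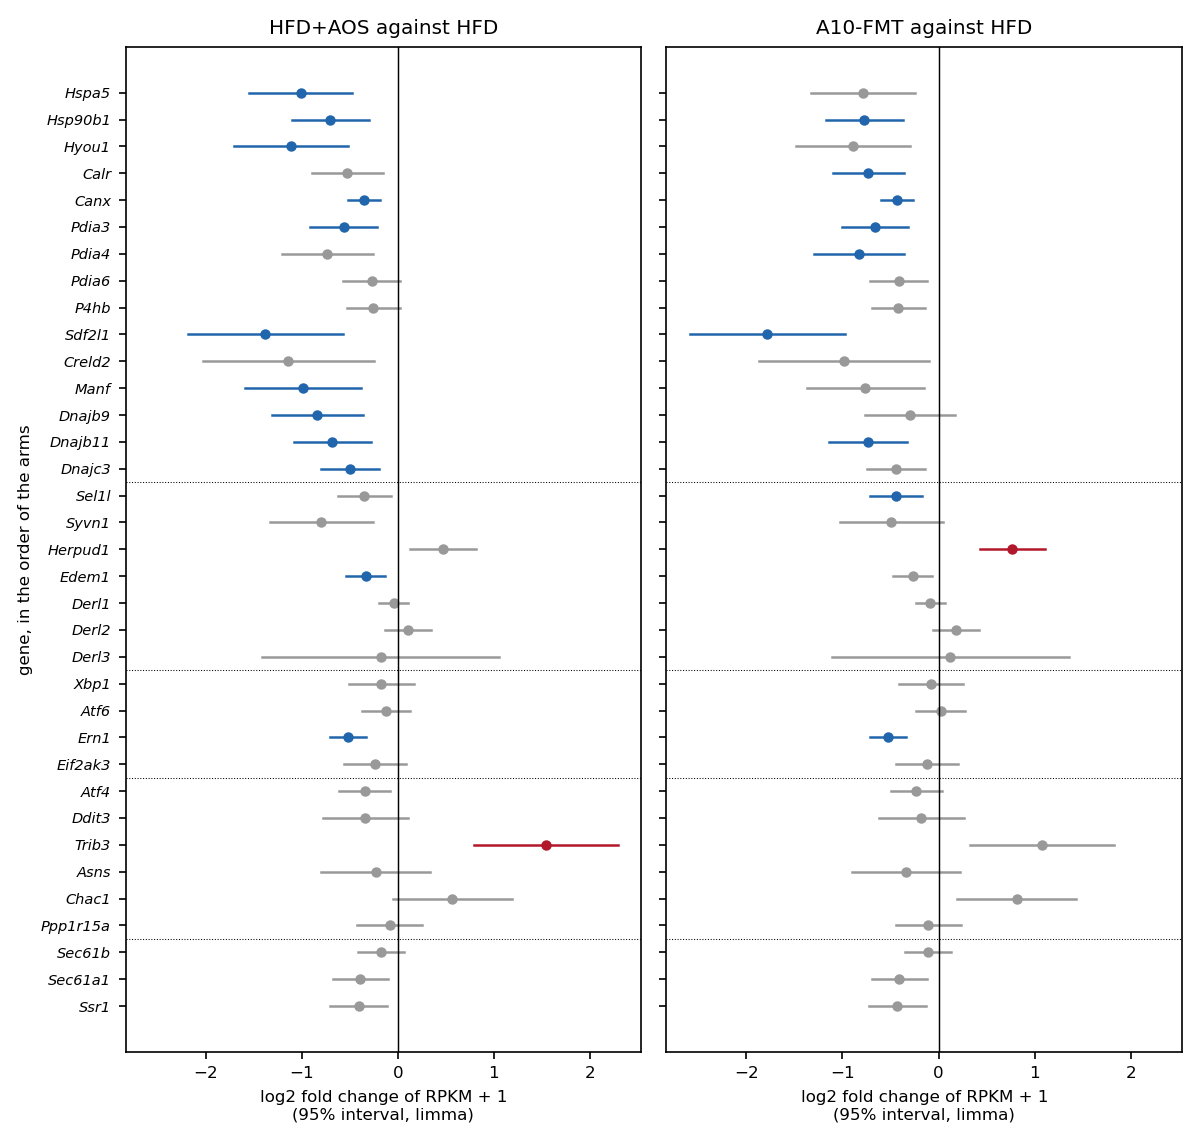
Log2 fold change of RPKM + 1 with its 95% interval (limma) for the 35 members in HFD+AOS against HFD (left) and A10-FMT against HFD (right), which share the HFD livers. Blue genes fell, red genes rose and grey genes did not pass an adjusted p of 0.05; dotted lines part the arms. Trib3 lies at 1.54 on the left and Herpud1 at 0.77 on the right, with the chaperones to the left of 0 in both panels.

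In the degradation arm, Herpud1 ran against the chaperones. Herpud1 is a membrane protein of the ubiquitin ligase complex that exports misfolded proteins, and it is known to respond to all branches of the stress response. Herpud1 was at 68.8, 79.5 and 74.97 RPKM in Con, 171, 100.03 and 118 in AOS, 124, 124 and 134 in HFD, 175, 182 and 174 in HFD+AOS, 122, 178 and 176 in Con-FMT and 221, 223 and 208 in A10-FMT. The Con livers were below every other liver, the 3 A10-FMT livers were above every other liver, and the HFD livers lay below all HFD+AOS livers. Herpud1 rose in A10-FMT against HFD (log2 fold change 0.77 ± 0.16 SE, adjusted p = 0.0103), a call made in all 13 alternatives tried, with adjusted p of at most 0.0458. Its means were higher in HFD than in Con (log2 fold change 0.77 ± 0.16 SE, adjusted p = 0.0517), in AOS than in Con (log2 fold change 0.76 ± 0.16 SE, adjusted p = 0.071), in HFD+AOS than in HFD (log2 fold change 0.47 ± 0.16 SE, adjusted p = 0.0785) and in HFD+AOS than in AOS (log2 fold change 0.48 ± 0.16 SE, adjusted p = 0.0965), and none of these 4 passed. The first passed without Con replicate 2, with a pseudocount of 0.1 or with equal library medians (limma, adjusted p down to 0.0388), and the second without Con replicate 2 or AOS replicate 2 (down to 0.0448), and the fourth without AOS replicate 1 or with equal library medians (down to 0.0102). Of the 35 members Herpud1 had the smallest p over the 6 groups (adjusted p = 0.000231).

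Per length, Herpud1 stood well below Hspa5 in Con livers and at about the same level in HFD+AOS livers. The log2 ratio of Herpud1 to Hspa5 was -2.05 to -1.84 in Con, -1.19 to -0.77 in AOS, -1.70 to -1.25 in HFD, -0.00 to 0.08 in HFD+AOS, -1.77 to -0.94 in Con-FMT and -0.34 to 0.59 in A10-FMT. Every HFD+AOS and A10-FMT liver was above every liver of the other 4 groups on this ratio.

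Sel1l and Syvn1 (Hrd1) are the adaptor and the ubiquitin ligase of the same export complex. Sel1l was at 19.8, 18.03 and 19.4 RPKM in Con, 22.8, 20.2 and 20.8 in AOS, 22.7, 23.4 and 20.4 in HFD, 18.2, 16.3 and 17.1 in HFD+AOS, 18.98, 30.97 and 24.9 in Con-FMT and 14.6, 15.6 and 18.1 in A10-FMT. Sel1l fell in A10-FMT against HFD (log2 fold change -0.45 ± 0.13 SE, adjusted p = 0.0489) and in A10-FMT against Con-FMT (log2 fold change -0.58 ± 0.13 SE, adjusted p = 0.0309); the A10-FMT livers lay below all livers of both groups. The first call was lost without any 1 HFD liver or without A10-FMT replicate 1 or 2, and under the replicate block, with adjusted p up to 0.172. Syvn1 was at 32.9, 30.6 and 32.9 RPKM in Con, 29.6, 26.1 and 28.96 in AOS, 33.5, 34.4 and 29.1 in HFD, 18.6, 17.4 and 18.5 in HFD+AOS, 23, 72.1 and 43.7 in Con-FMT and 19.5, 23.4 and 25.4 in A10-FMT. Syvn1 was lower in the HFD+AOS livers than in every Con, AOS, HFD and Con-FMT liver, but the difference from HFD did not pass (log2 fold change -0.79 ± 0.25 SE, adjusted p = 0.0595), and the Con-FMT livers ran from among the lowest to the highest of all.

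Edem1 picks misfolded glycoproteins for disposal. Edem1 was at 25.5, 24.1 and 26.1 RPKM in Con, 27.1, 23.4 and 26.7 in AOS, 22.4, 24.8 and 25.3 in HFD, 19.5, 18.01 and 19.5 in HFD+AOS, 21.4, 28 and 24.5 in Con-FMT and 18.9, 18.7 and 22.1 in A10-FMT. It fell in HFD+AOS against HFD (log2 fold change -0.33 ± 0.10 SE, adjusted p = 0.0435) and in HFD+AOS against AOS (log2 fold change -0.42 ± 0.10 SE, adjusted p = 0.0188), and the HFD+AOS livers lay below all livers of both groups. The derlins Derl1, Derl2 and Derl3 are membrane proteins of the export channel. Derl1 ranged from 33.95 to 40.9 RPKM and Derl2 from 20.5 to 29.6, and the AOS livers of Derl2 alone ran from 20.8 to 29.6. Derl3 was low, and its livers differed widely within groups, from 0.66 to 12.99 RPKM. None of the derlins changed in any comparison.

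In the sensor arm Ern1 alone changed, and it fell in both comparisons in which chaperones fell and in A10-FMT against Con-FMT. Ern1 was at 7.89, 7.98 and 8.31 RPKM in Con, 8.28, 8.50 and 8.35 in AOS, 10.98, 9.84 and 10.7 in HFD, 6.82, 6.51 and 7.84 in HFD+AOS, 8.14, 10.3 and 9.48 in Con-FMT and 7.57, 6.23 and 7.26 in A10-FMT. The HFD livers lay above all Con, AOS, HFD+AOS and A10-FMT livers. Ern1 fell in HFD+AOS against HFD (log2 fold change -0.52 ± 0.09 SE, adjusted p = 0.00268), a call made in all 13 alternatives, in A10-FMT against HFD (log2 fold change -0.52 ± 0.09 SE, adjusted p = 0.00239), made in 12 of 13, and in A10-FMT against Con-FMT (log2 fold change -0.36 ± 0.09 SE, adjusted p = 0.0492), made in 4 of 12 and lost under the replicate block, with adjusted p up to 0.282. Its higher mean in HFD than in Con did not pass (log2 fold change 0.34 ± 0.09 SE, adjusted p = 0.0992). The AOS effect on Ern1 was 0.05 on the regular diet and -0.52 on the high-fat diet, and the difference between them just missed the threshold (log2 fold change -0.57 ± 0.12 SE, adjusted p = 0.0524). For Canx the same difference was -0.36 (adjusted p = 0.155).

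Xbp1, whose spliced form drives many chaperone genes, was not called in any comparison. Xbp1 was at 97.8, 80.5 and 85.7 RPKM in Con, 74.1, 74.3 and 76.3 in AOS, 97.7, 98.1 and 74.3 in HFD, 84.1, 70.8 and 83.7 in HFD+AOS, 62.1, 92.1 and 92.7 in Con-FMT and 101, 70.1 and 85.2 in A10-FMT. The AOS livers lay below the Con livers and the other groups compared overlapped, with a log2 fold change of -0.17 in HFD+AOS against HFD (95% interval -0.51 to 0.17). The table has 1 value per gene, so spliced and unspliced Xbp1 could not be told apart. Atf6 ranged from 4.64 to 8.09 RPKM and Eif2ak3 from 2.49 to 5.40, and neither changed in any comparison. For both genes the HFD livers lay above all Con and all HFD+AOS livers, as for Ern1, and overlapped those of A10-FMT. In HFD+AOS against HFD the interval of Atf6 was -0.37 to 0.13 and that of Eif2ak3 -0.56 to 0.08 on the log2 scale.

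In the Atf4-Chop arm, Trib3, a pseudokinase induced by Atf4 and Chop that binds the kinase Akt, moved most. Trib3 was at 1.32, 1.65 and 1.44 RPKM in Con, 4.0, 1.61 and 2.33 in AOS, 2.68, 3.31 and 1.34 in HFD, 6.76, 8.94 and 10.9 in HFD+AOS, 2.63, 3.10 and 4.37 in Con-FMT and 13.1, 3.25 and 4.82 in A10-FMT. All HFD+AOS livers were above every Con, AOS, HFD and Con-FMT liver, and the A10-FMT livers ran from within the Con-FMT range to the highest value of all. Trib3 rose in HFD+AOS against HFD (log2 fold change 1.54 ± 0.35 SE, adjusted p = 0.0152) and in HFD+AOS against AOS (log2 fold change 1.47 ± 0.35 SE, adjusted p = 0.0227). The first call was lost without HFD replicate 3 or HFD+AOS replicate 3, with adjusted p up to 0.0776, and in A10-FMT against HFD the difference did not pass (log2 fold change 1.08 ± 0.35 SE, adjusted p = 0.0725).

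Atf4, the transcription factor of the arm, and Ddit3, its target Chop, did not rise with Trib3. Atf4 was at 68.4, 76.2 and 72.4 RPKM in Con, 61.3, 70.1 and 70.3 in AOS, 61.5, 69.8 and 71.3 in HFD, 49.5, 50 and 59.7 in HFD+AOS, 69.8, 99.4 and 78.5 in Con-FMT and 49.9, 64.9 and 57.8 in A10-FMT. Atf4 was lower in the HFD+AOS livers than in every HFD liver without passing the test (log2 fold change -0.34 ± 0.13 SE, adjusted p = 0.0972), and its difference in A10-FMT against Con-FMT was near the threshold (log2 fold change -0.51 ± 0.13 SE, adjusted p = 0.0532). Ddit3 was at 5.32, 5.33 and 6.48 RPKM in Con, 3.48, 5.33 and 5.32 in AOS, 6.80, 6.26 and 8.43 in HFD, 4.90, 6.18 and 5.27 in HFD+AOS, 9.08, 15.8 and 8.21 in Con-FMT and 6.36, 7.81 and 4.64 in A10-FMT. Con-FMT replicate 2 was highest in both genes. In Con-FMT against HFD, Ddit3 (log2 fold change 0.52 ± 0.21 SE, adjusted p = 0.691) and Atf4 (log2 fold change 0.27 ± 0.13 SE, adjusted p = 0.741) had the smallest p of the members, followed by Calr (log2 fold change -0.35 ± 0.17 SE, adjusted p = 0.742), and none passed. Both Atf4 and Ddit3 changed over the 6 groups, with adjusted p of 0.0233 and 0.0271.

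Asns, which makes asparagine, was low. Asns was at 2.65, 0.79 and 2.37 RPKM in Con, 0.28, 0.74 and 0.98 in AOS, 0.34, 1.19 and 1.04 in HFD, 1.18, 0.34 and 0.27 in HFD+AOS, 0.37, 0.31 and 0.30 in Con-FMT and 0.62, 0.27 and 0.44 in A10-FMT. The Con livers 1 and 3 stood above all others, and the lower mean in AOS than in Con did not pass (log2 fold change -0.77 ± 0.27 SE, adjusted p = 0.188). Chac1, which breaks down glutathione, had its highest livers in A10-FMT. Chac1 was at 1.18, 0.65 and 1.03 RPKM in Con, 1.99, 0.80 and 1.23 in AOS, 1.99, 1.15 and 0.34 in HFD, 2.48, 1.13 and 2.80 in HFD+AOS, 1.12, 1.06 and 1.71 in Con-FMT and 3.48, 1.53 and 3.14 in A10-FMT. The A10-FMT livers lay above all Con livers and overlapped those of HFD, and the difference in A10-FMT against HFD did not pass (log2 fold change 0.82 ± 0.29 SE, adjusted p = 0.0991). Ppp1r15a (Gadd34), which brings a phosphatase to eIF2alpha and so restores translation, ranged from 3.31 to 6.19 RPKM and did not change in any comparison.

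The translocon genes Sec61a1 and Sec61b, the channel through which new proteins enter the ER, and Ssr1, which assists it, did not change in any comparison. Sec61a1 was at 58.8, 57.8 and 59 RPKM in Con, 61.99, 51.1 and 51.8 in AOS, 51.1, 65.4 and 56.3 in HFD, 46.1, 41.9 and 42.7 in HFD+AOS, 41.05, 58.7 and 57.1 in Con-FMT and 38.8, 39.8 and 50.98 in A10-FMT. Its HFD+AOS livers lay below every Con, AOS and HFD liver (log2 fold change -0.39 ± 0.13 SE, adjusted p = 0.0831). Sec61b ranged from 117 to 178 RPKM and Ssr1 from 15.7 to 30.7, and the log2 fold changes in HFD+AOS against HFD were -0.17 and -0.41.

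Other genes of the same pathways were read from further lists, whose calls also moved with the livers in the fit. Over all genes tested, 4.58% fell and 4.17% rose in HFD+AOS against HFD, and 3.98% fell and 2.62% rose in A10-FMT against HFD. An unadjusted p under 0.05 was reached by 2754 and 2571 of the 10507 genes. Small counts from these short lists are therefore not read as a result about a list. Of 20 other ER folding enzymes, 2 fell in HFD+AOS against HFD and 3 in A10-FMT against HFD, and none rose. The 2 were Hspa13 (log2 fold change -0.55 ± 0.14 SE, adjusted p = 0.0286) and the oxidase Ero1lb (log2 fold change -0.67 ± 0.19 SE, adjusted p = 0.0434), and the 3 were the glycoprotein folding sensor Uggt1 (log2 fold change -0.44 ± 0.11 SE, adjusted p = 0.0249), Hspa13 and the glucosidase Ganab. None of these was called without Con replicate 3 and AOS replicate 3. Of 18 other degradation genes, 2 fell and none rose in each comparison, the ubiquitin-conjugating enzyme Ube2g2 (log2 fold change -0.52 ± 0.12 SE, adjusted p = 0.0141 in HFD+AOS) and Faf2. Without Con replicate 3 and AOS replicate 3 the counts were 1 (Ube2g2) and 2. Of 23 genes of translocation, glycosylation and signal peptidase, 3 fell in HFD+AOS against HFD and 6 in A10-FMT against HFD, with the oligosaccharyltransferase subunit Stt3b among both (log2 fold change -0.46 ± 0.11 SE, adjusted p = 0.0171 and log2 fold change -0.53 ± 0.11 SE, adjusted p = 0.0089). Without those livers 1 fell in the first and 2 in the second, with Stt3b called in both. Of 19 tested genes of ER to Golgi transport, 0 changed by limma in HFD+AOS against HFD, with 5 at an unadjusted p under 0.05, and 1, Copb1, fell in A10-FMT against HFD, a call not made without those livers. Of 18 regulators of the ER stress response, 0 changed by limma in either comparison, with 6 and 2 at an unadjusted p under 0.05. Creb3l3, a hepatocyte factor cut like Atf6, rose in HFD+AOS against AOS (log2 fold change 0.53 ± 0.12 SE, adjusted p = 0.0183), but not without Con replicate 3 and AOS replicate 3 (adjusted p = 0.117 by limma).

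Of 17 tested targets of Atf4 and the integrated stress response beside the members, 1 rose and 1 fell in HFD+AOS against HFD, and 1 rose and 3 fell in A10-FMT against HFD; without Con replicate 3 and AOS replicate 3 the counts were 1 and 1, and 1 and 2. Fgf21, a fasting hormone of the liver, rose in HFD against Con (log2 fold change 1.44 ± 0.25 SE, adjusted p = 0.0283) and fell in A10-FMT against HFD (log2 fold change -1.25 ± 0.25 SE, adjusted p = 0.00809). Without those livers the first was not called (limma, adjusted p = 0.205) and the second was (adjusted p = 0.0213). Outside the ER, 8 of 16 cytosolic and mitochondrial chaperones fell in HFD+AOS against HFD, with a median of -0.76, and 0 of 16 changed by limma in A10-FMT against HFD (3 at an unadjusted p under 0.05), with a median of -0.28. The 3 with the smallest p were the small heat shock protein Hspb1 (log2 fold change -1.74 ± 0.32 SE, adjusted p = 0.00477), Hsp90aa1 (log2 fold change -1.40 ± 0.31 SE, adjusted p = 0.0133) and Hsph1 (log2 fold change -1.41 ± 0.32 SE, adjusted p = 0.0142). Without Con replicate 3 and AOS replicate 3, 4 of the 16 fell, these 3 among them, and with single livers left out the count ran from 1 to 11.

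Clock genes, which cycle over the day in liver, changed in HFD+AOS and in A10-FMT against HFD. They also changed in HFD+AOS against AOS and in A10-FMT against Con-FMT. Of 6 genes of the Bmal1 phase, 5 fell in HFD+AOS against HFD (all genes 4.58%) and 5 in A10-FMT against HFD (all genes 3.98%). Their medians were -1.69 and -1.34, with log2 fold changes down to -2.71. Of 10 clock repressors and PAR bZIP factors, 8 rose in HFD+AOS against HFD (all genes 4.17%) and 9 in A10-FMT against HFD (all genes 2.62%). Their medians were 2.27 and 1.92, with log2 fold changes up to 6.09. Without Con replicate 3 and AOS replicate 3, 5 and 4 of the first list fell and 8 and 8 of the second rose. In HFD+AOS against AOS, 5 of the first list fell and 8 of the second rose (all genes 2.93% and 2.51%). There 0 of the 15 chaperones were called, with 14 of 15 negative and a median log2 fold change of -0.32. In A10-FMT against Con-FMT, 4 of the first list fell and 4 of the second rose (all genes 1.23% and 0.457%). Again 0 chaperones were called, with 15 of 15 negative and a median of -0.47. Without Con replicate 3 and AOS replicate 3 the counts of clock genes in these comparisons were 4 and 6, and 4 and 4. In HFD against Con 0 of these clock genes changed by limma, with 1 and 2 at an unadjusted p under 0.05 (1623 of all 10507 genes). Whether the hour of collection or the clock had a part in the lower chaperones was not tested.

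The summed markers of Kupffer, endothelial and stellate cells in HFD+AOS and in A10-FMT overlapped those in HFD. Summed over 8 genes, Kupffer cell and macrophage markers were 61.1 to 139 RPKM in HFD, 93.4 to 103 in HFD+AOS and 67.2 to 83.7 in A10-FMT, and none of the 8 changed in either comparison with HFD. Summed endothelial markers were 55.4 to 63.5, 59.1 to 68.9 and 54.9 to 66.7 RPKM, and summed stellate cell and fibroblast markers 93.5 to 109, 86.6 to 124 and 104 to 113 RPKM, with none changed. Of 8 hepatocyte markers, 1 rose and 1 fell in HFD+AOS against HFD and 1 rose in A10-FMT against HFD, and of 3 tested cholangiocyte markers 1 fell in each. Of 2 tested B and plasma cell markers 1 rose in A10-FMT against HFD. The shares of all genes are those given with the further lists above, and such small counts are not read as a change of a cell type. Without Con replicate 3 and AOS replicate 3 the hepatocyte marker that fell and the B and plasma cell marker were not called, and the other marker calls were counted as before. The part of these cells in the chaperone values was not tested.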

How the data were processed

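The authors mapped liver RNA-seq reads (Illumina HiSeq) to mouse genes with SOAPaligner 2.20 per the study's methods, while the submitters' processing notes name Bowtie 0.12.2 and mm10; which of them made the table is not known. The authors deposited 1 table of RPKM values for 19057 genes in 18 livers. Read numbers are not in the table, so the depth is unknown, no counting interval can be given, and DEGseq, which the methods used, was not run. By the aligner settings in the methods, reads that fit several genes may have been counted in more than 1, so near-identical genes can share values.

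The 10507 genes that reached an RPKM of 1 in 3 or more livers were kept. log2(RPKM + 1) was fitted with limma 3.58.1 (lmFit, eBayes with trend; R 4.3.3) with a mean for each of the 6 groups, two-sided, and Benjamini-Hochberg adjusted over all genes tested. The fit was tested on simulated data before use. The labels call the samples separate livers, so p-values measure the spread between mice as far as the labels hold. If Con replicate 3 and AOS replicate 3 were not separate mice, the spread shared by all comparisons would be too small and the p-values too low. Whether they were separate was not tested. The labels give no pairing of livers by replicate number. The correlation of deviations between same-numbered livers of 2 groups ran from -0.177 to 0.225. With 3 livers a group, and no differently numbered livers set beside them, these values cannot exclude a weak pairing.

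The members, and the lists of other ER folding, degradation, Atf4 target, translocation and glycosylation, ER to Golgi, stress regulator, cytosolic chaperone, clock and cell marker genes, were chosen with earlier results of these data known. Some listed genes were matched under another symbol. All members could be named; full statistics are given for each call and for the 3 members with the smallest p in each comparison, and from the lists up to 3 called genes with the smallest p, except that Ganab, Faf2 and Copb1 are named without values. Promoters (250 bases before to 50 after the start, RefSeq, GRCm38.p6) were searched with Python 3.11.15; the motifs UPRE, ERSE-II and the cAMP response element were added after the values were seen. Alternatives were another scaling, a pseudocount of 0.1, no filter, only the groups compared, a replicate block, Con replicate 3 and AOS replicate 3 left out, each liver left out in turn and, chosen after seeing the data, Con-FMT replicate 2 left out of the fit and the same alternatives for the further lists.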

Additional observations from a re-analysis of the deposited data

How the results depend on the processing

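Counts of members changed moved with the livers that set the spread more than with scaling or pseudocount. Calls over all genes in these alternatives are not given here, so the counts are not set against a share of all genes. Without Con replicate 3 and AOS replicate 3, the count was 5 (from 10) for A10-FMT against HFD, 0 (from 2) for A10-FMT against Con-FMT, 3 (from 13) for HFD+AOS against HFD, 0 (from 2) for HFD+AOS against AOS and 3 (from 19) over the 6 groups. With no filter on low values, more genes entered the adjustment and it was 0 for A10-FMT against Con-FMT, 4 for HFD+AOS against HFD, 1 for HFD+AOS against AOS and 7 over the 6 groups. With only the groups compared in the fit it was 2 for A10-FMT against HFD, 0 for A10-FMT against Con-FMT, 13 for HFD+AOS against AOS and 4 for the difference of the AOS effect between diets. HFD against Con gave 1 with library medians set equal and 1 with a pseudocount of 0.1. Leaving Con-FMT replicate 2 out of the fit, an alternative chosen after seeing the data, gave 1 for the difference of the AOS effect between diets, 13 for A10-FMT against HFD and 18 for HFD+AOS against HFD. The causes were not tested, apart from the smaller sets of livers and larger sets of genes named here.

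Leaving out single livers gave 0 to 1 for HFD against Con, 3 to 17 for A10-FMT against HFD, 0 to 0 for Con-FMT against HFD, 0 to 14 for A10-FMT against Con-FMT, 0 to 2 for AOS against Con, 2 to 14 for HFD+AOS against HFD, 0 to 2 for HFD+AOS against AOS, 0 to 1 for the difference between diets and 8 to 23 over the 6 groups. With the replicate number as a block the counts were 0 for HFD against Con, 9 for A10-FMT against HFD, 0 for Con-FMT against HFD, 2 for A10-FMT against Con-FMT, 0 for AOS against Con, 14 for HFD+AOS against HFD, 2 for HFD+AOS against AOS, 0 for the difference between diets and 18 over the 6 groups. In none of 15 pairs of groups was the correlation of same-numbered livers over 0.1 for every replicate number. Since the labels give no pairing either, no member is called on the block alone. The block is counted among the alternatives, and calls lost under it are counted as lost. For the 41 fold changes of members that were called or had the 3 smallest p of their comparison, no direction turned in any alternative: 384 values kept their side of the threshold, 146 lost it and 15 gained it; the fold changes of other members were not followed one by one. Setting library medians equal moved the median of all genes by less than 0.1 (log2) in each comparison. Depth cannot be read from these values, and genes at a few RPKM, such as Asns, Chac1 and Derl3, spread widely within groups.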
